A study of Homo sapiens with 6 samples.

Results

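The 38 genes described here encode the protein folding and quality control machinery of the endoplasmic reticulum (ER). They were taken by symbol from a list of ER stress sensors, chaperones, disulfide bond enzymes and degradation genes, and all 38 were found among 17945 genes with a gene ID in the table. The cells were ARPE-19, an established line of human retinal pigment epithelium labelled as wild type, given 320 nM cinobufagin for 24 h or the solvent DMSO for the same time, with 3 libraries in each group. Cinobufagin is a steroid of toad venom that blocks the sodium pump. Levels were FPKM, that is, fragments divided by transcript length and by the total of the library. In whole cultures, fewer cells of a kind and less RNA per cell cannot be told apart. Whether these libraries are separate cultures is not stated in the labels, so p-values measure only how far these samples spread, and that spread may be technical.

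Proteins that enter the ER are held by chaperones, joined by disulfide bonds and trimmed at their sugar chains until they fold. Those that fail are recognised by lectins, passed through a membrane complex to the cytosol, extracted by an ATPase and degraded by the proteasome, a route called ER-associated degradation (ERAD). Unfolded protein in the ER activates the sensors IRE1 (gene ERN1), PERK (gene EIF2AK3) and ATF6. IRE1 splices XBP1 mRNA into a form that encodes an active transcription factor, PERK slows translation and favours that of ATF4, and ATF6 is cut to release a transcription factor. The retinal pigment epithelium secretes and recycles large amounts of protein. FPKM per gene does not show XBP1 splicing, ATF6 cleavage or PERK phosphorylation.

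The best known DNA element of this response is the ER stress element (ERSE), CCAAT and CCACG with 9 bases between them, to which ATF6 binds together with the CCAAT factor NF-Y. A shorter form, ERSE-II, has ATTGG and CCACG with 1 base between them. RefSeq promoter windows (GRCh38.p14, 250 bases before to 50 after a start of the gene) were at hand for 34 of the 38 genes, with 41 windows in all. Searched on both strands and with exact letters, an ERSE or ERSE-II was in the windows of 11 of these 34 genes (32.4%), against 44 of all 27305 genes with a window (0.161%). They are shown because this element is the one best known from such promoters. For the same reason a higher share among these genes was to be foreseen, and it is not a finding. Each is written 5′ to 3′ on the strand that reads toward CCACG, with the element in capitals and up to 8 bases on each side.
HSPA5 ERSE: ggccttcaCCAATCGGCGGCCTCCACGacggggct
HSP90B1 ERSE, distal: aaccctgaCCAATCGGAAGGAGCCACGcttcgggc
HSP90B1 ERSE, proximal: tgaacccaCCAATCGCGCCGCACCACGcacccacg
CALR ERSE: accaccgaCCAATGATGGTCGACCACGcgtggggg
CANX ERSE: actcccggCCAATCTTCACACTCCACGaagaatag
CRELD2 ERSE: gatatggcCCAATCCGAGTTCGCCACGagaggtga
ERO1B ERSE: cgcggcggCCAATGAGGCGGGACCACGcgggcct
PDIA6 ERSE: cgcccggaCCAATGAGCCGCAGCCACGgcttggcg
XBP1 ERSE: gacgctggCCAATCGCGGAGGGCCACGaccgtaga
HERPUD1 ERSE-II: ggacgccgATTGGGCCACGttgggaga
SDF2L1 ERSE-II: gggttttgATTGGTCCACGcttccgag
HYOU1 ERSE-II, distal: ggcctgggATTGGACCACGtcacgggg
HYOU1 ERSE-II, proximal: gcgtactcATTGGACCACGtcccaggc

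Near-matches that differ by a letter were not counted. The ERSE began 66 bases before the start used for HSPA5, 86 before that for PDIA6 and 52 before that for XBP1. The start used is not always the outer end of the gene. The PDIA6 window ends at 10813035, inside a gene that runs to 10837977, and the CANX windows also lie inside the gene. Another element, TGACGTGG, the core of the sequence that spliced XBP1 and ATF6 are known to bind, was in the windows of DNAJC10, HYOU1 and VCP (8.82% of the 34), against 0.927% of all genes. In HYOU1 it shares bases with the distal ERSE-II. A match describes the letters of the window and was not tested as a binding site.

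Most of these genes were higher after cinobufagin, with a set of clear exceptions. All 38 were tested, and 26 rose while 7 fell, leaving 5 that did not pass the threshold (limma on log2 of FPKM + 1, Benjamini-Hochberg adjusted p under 0.05 over all 11599 genes tested). Thus 68.4% of them rose, where 39.2% of all genes tested did, and 18.4% fell, against 28.4% of all genes. The median log2 fold change was 0.26, and 0.06 over all genes tested. Sizes were modest. At a change of at least 0.5 on the log2 scale, 6 of the 38 rose and 4 fell, where 10.2% of all genes rose and 11.3% fell by that much. Cinobufagin libraries lay wholly above DMSO libraries in 27 of the 38, against 41.2% of all genes tested, and wholly below in 7, against 29.6%. DERL3 passed the filter on low values only through the DMSO libraries, so it had to differ. Without it, of 37 genes 26 rose and 6 fell, 3 of them by at least 0.5, and 6 lay wholly below.

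**Figure D1:**
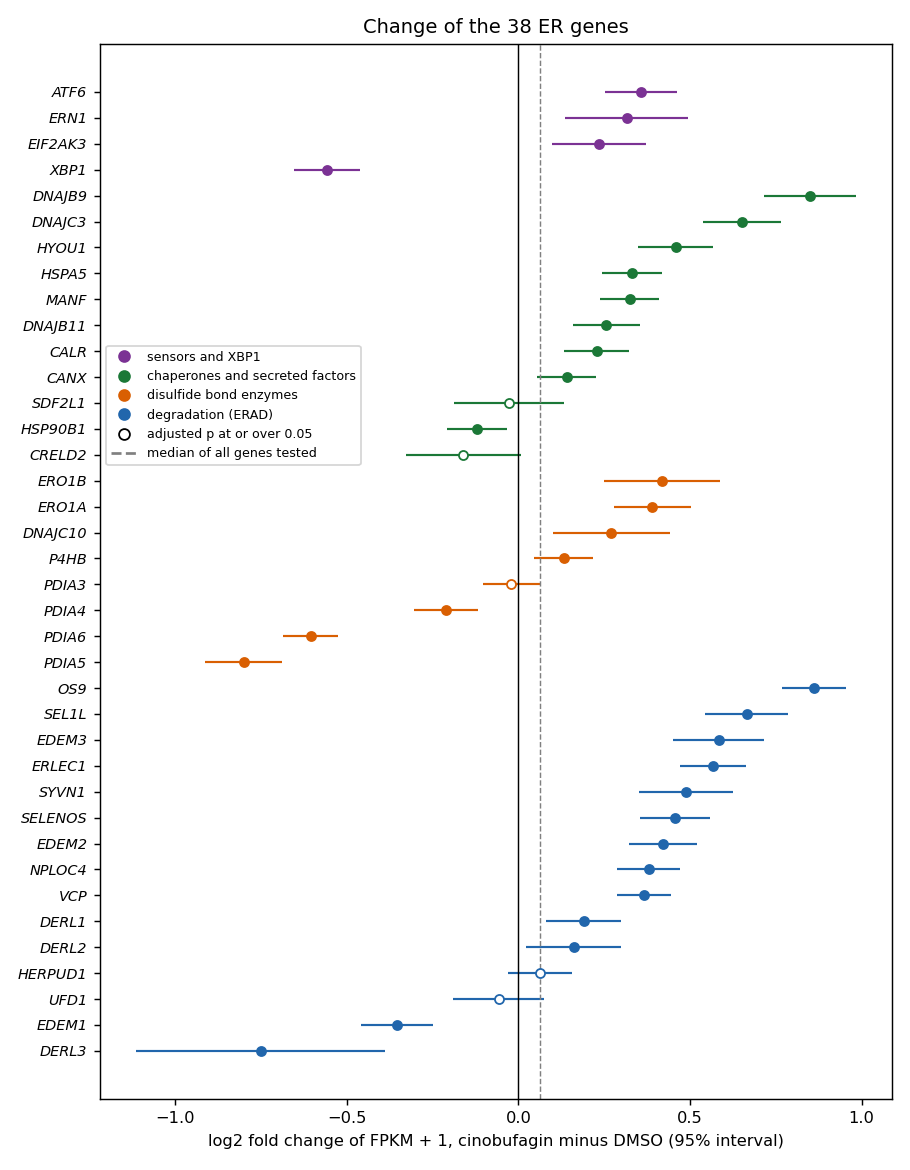
Log2 fold change of FPKM + 1 (cinobufagin minus DMSO) with its 95% interval for each of the 38 genes, coloured by role. Open points did not pass the test, and the dashed line is the median of all genes tested, 0.06. Values run from -0.80 for PDIA5 to 0.86 for OS9.

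The role groups differed in balance. Among the sensors and XBP1, 3 of 4 rose and XBP1 fell. Of 11 chaperones and secreted folding factors, 8 rose and 1 fell, and 2 missed the threshold (median 0.26 on the log2 scale). The 8 disulfide bond enzymes were the most divided, with 4 that rose, 3 that fell and 1 that did not pass (median 0.06). Their shares were 50% higher and 37.5% lower, where all genes tested had 39.2% and 28.4% and also a median of 0.06. The ERAD group had the highest median, 0.38, with 11 of 15 that rose, 2 that fell (DERL3 among them) and 2 that did not pass. These are counts of genes, and no test of one role group against another was made. The shares higher and lower were 75% and 25% for the sensors and XBP1, 72.7% and 9.09% for chaperones and 73.3% and 13.3% for ERAD.

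The sensor genes rose by small amounts. ATF6 (gene ID 22926) was at 22.0, 22.4 and 20.8 FPKM in the DMSO libraries and at 27.9, 27.7 and 28.9 FPKM in the cinobufagin libraries, without overlap (log2 change 0.36, SE 0.05, limma adjusted p = 4.24e-05). EIF2AK3, the PERK gene, was at 16.7, 19.7 and 18.6 FPKM and then at 21.7, 20.8 and 22.7 FPKM (log2 change 0.23, SE 0.06, limma adjusted p = 0.00591). The groups came close in this gene, at 19.7 and 20.8 FPKM. ERN1, the IRE1 gene, was the least abundant of the 38 in DMSO, at 1.07, 1.29 and 1.13 FPKM, and was at 1.74, 1.67 and 1.66 FPKM with cinobufagin (log2 change 0.32, SE 0.08, limma adjusted p = 0.00471). At such low values the FPKM + 1 scale understates the change, and the ratio of the means was 1.45.

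XBP1, whose mRNA is the substrate of IRE1, went the other way. Its level was 69.2, 67.3 and 70.9 FPKM in DMSO and 48.5, 44.8 and 46.7 FPKM in cinobufagin libraries, a 1.48-fold lower mean (log2 change -0.56, SE 0.04, limma adjusted p = 5.58e-07). The gene (gene ID 7494) lies on chromosome 22, 28794555 to 28800597 on GRCh38, minus strand. All 3 DMSO values were well above all 3 cinobufagin values.

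Among the chaperones, the largest rises were those of co-chaperones. DNAJB9 (gene ID 4189, chromosome 7, 108569568 to 108574850), an ER J protein that keeps IRE1 in check, was at 7.56, 8.0 and 8.21 FPKM in DMSO and 15.96, 14.2 and 15.2 FPKM with cinobufagin, a 1.91-fold higher mean (log2 change 0.85, SE 0.06, limma adjusted p = 2.71e-07). It overlaps PNPLA8 and THAP5 on the opposite strand, whose reads cannot be told apart without strand. DNAJC3, a J protein that also inhibits PERK, was at 11.9, 12.4 and 12.04 FPKM and then at 19.8, 18.8 and 20.2 FPKM (log2 change 0.65, SE 0.05, limma adjusted p = 5.33e-07). Both genes had cinobufagin values far outside the narrow DMSO range. HYOU1, a nucleotide exchange factor of BiP, was at 40.5, 37.7 and 39.9 FPKM and then at 52.2, 53.4 and 57.9 FPKM (log2 change 0.46, SE 0.05, limma adjusted p = 8.12e-06).

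HSPA5 encodes BiP, the main HSP70 of the ER and the usual marker of the unfolded protein response. It rose by a smaller amount, from 249, 254 and 256 FPKM in DMSO to 314, 309.7 and 332 FPKM with cinobufagin, a 1.26-fold higher mean (log2 change 0.33, SE 0.04, limma adjusted p = 1.73e-05). The groups did not overlap. MANF, a secreted factor that binds BiP, rose by 0.32, DNAJB11, a BiP co-chaperone, by 0.26 and calreticulin, CALR, by 0.23 on the log2 scale. The membrane-bound lectin chaperone calnexin, CANX, rose by 0.14, but its limma adjusted p was 0.0700 under median centring (0.00235 to 0.0700 among the alternatives).

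HSP90B1, the ER form of HSP90, was the chaperone gene that fell past the threshold. It was at 509, 542 and 543 FPKM in DMSO and 493, 487 and 485 FPKM with cinobufagin (log2 change -0.12, SE 0.04, limma adjusted p = 0.0186). The lowest DMSO library lay close to the cinobufagin values, and 6 of 14 alternatives ended the call, with adjusted p from 0.000773 to 0.173 among them all. SDF2L1, a partner of the J proteins, was at 14.2 ± 1.32 and 13.9 ± 1.04 FPKM (SD, n = 3 each), a difference that did not pass (95% interval of the log2 fold change -0.19 to 0.13, limma adjusted p = 0.760). CRELD2, a secreted ER stress protein, was at 26.8 ± 3.00 and 23.8 ± 1.63 FPKM, a difference that did not pass either (-0.33 to 0.01, limma adjusted p = 0.0805). Leaving out DMSO replicate 2, the lowest DMSO value of CRELD2, gave a log2 fold change of -0.25 (limma adjusted p = 0.00405, where alternatives gave 0.00405 to 0.270). CRELD2 also passed after quantile normalization (limma adjusted p = 0.0392), under median centring (0.0336) and without cinobufagin replicate 2 (0.0419).

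**Figure D2:**
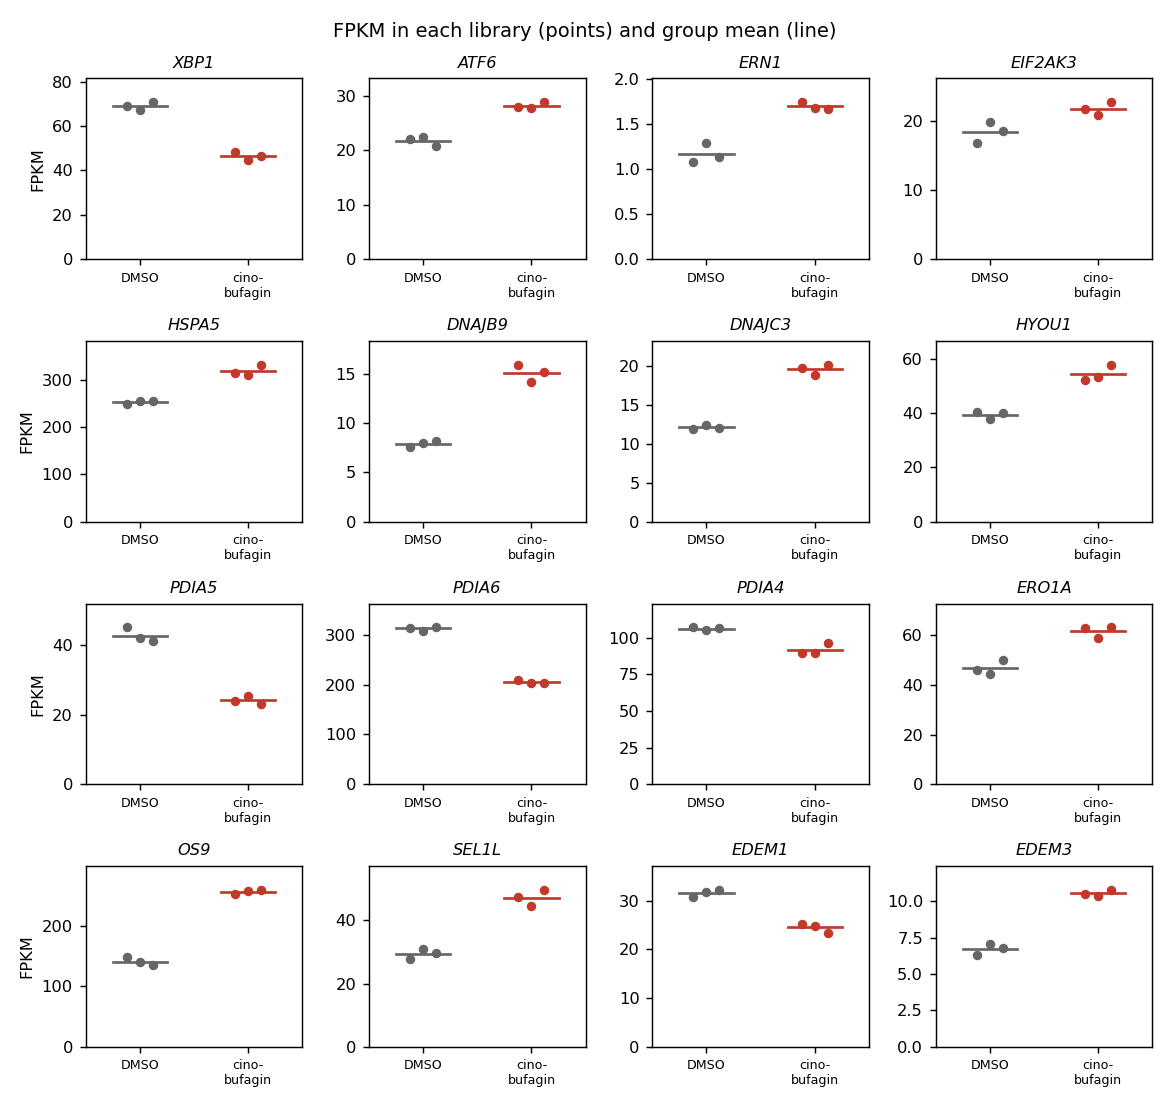
FPKM of 16 of the genes in each of the 6 libraries (points, every axis from 0) with group means (lines). In each panel the 3 cinobufagin libraries lie wholly on one side of the 3 DMSO libraries, below them for XBP1, PDIA4, PDIA5, PDIA6 and EDEM1.

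The disulfide enzymes comprise 5 protein disulfide isomerases, of which 3 fell and P4HB rose, the oxidases that recharge them and a reductase. PDIA5 (gene ID 10954, chromosome 3, 123067062 to 123225227), an isomerase linked to ATF6 activation, was at 45.2, 41.97 and 41.2 FPKM in DMSO and 23.99, 25.3 and 23.1 FPKM with cinobufagin, a 1.77-fold lower mean (log2 change -0.80, SE 0.05, limma adjusted p = 1.06e-07). It overlaps SEC22A on the same strand, so reads of the shared part are uncertain. PDIA6 (gene ID 10130, chromosome 2, 10783391 to 10837977), an isomerase that binds BiP and limits IRE1 signalling, was at 315, 309 and 316 FPKM and then at 209.9, 204 and 203 FPKM (log2 change -0.61, SE 0.04, limma adjusted p = 6.02e-08). PDIA6 overlaps ATP6V1C2 on the opposite strand. For PDIA5 and PDIA6 the 2 groups were far apart. PDIA4, a larger isomerase, was at 107, 105 and 107 FPKM in DMSO and 89.3, 89.5 and 96.7 FPKM with cinobufagin, a smaller fall (log2 change -0.21, SE 0.04, limma adjusted p = 9.00e-04).

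P4HB and PDIA3, also abundant isomerases, had smaller changes than PDIA6. P4HB, the founding protein disulfide isomerase and a subunit of collagen prolyl hydroxylase, was at 892 ± 20.1 FPKM in DMSO and 978 ± 15.8 with cinobufagin (SD with n = 3 each; log2 change 0.13, SE 0.04, limma adjusted p = 0.0106). That call was lost under median centring (0.0947) and without DMSO replicate 2 or cinobufagin replicate 2 (0.0575 and 0.0527), and the lowest value among the alternatives was 7.43e-05. PDIA3, which works with calnexin and calreticulin on glycoproteins, was at 212 ± 4.29 and 209 ± 4.55 FPKM, a difference that did not pass (95% interval of the log2 fold change -0.10 to 0.06, limma adjusted p = 0.640).

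The oxidase genes rose together. ERO1A, the widely expressed oxidase, was at 45.9, 44.6 and 50.1 FPKM in DMSO and 62.9, 58.8 and 63.3 FPKM with cinobufagin (log2 change 0.39, SE 0.05, limma adjusted p = 3.87e-05). ERO1B, its relative best known from secretory cells such as pancreatic beta cells, was low, at 1.56, 1.65 and 1.71 FPKM and then at 2.66, 2.36 and 2.56 FPKM (log2 change 0.42, SE 0.08, limma adjusted p = 5.00e-04). DNAJC10, a J protein and reductase that opens disulfide bonds of ERAD clients, was at 6.90, 8.48 and 8.67 FPKM and then at 9.99, 9.90 and 9.61 FPKM (log2 change 0.27, SE 0.08, limma adjusted p = 0.00889). All 3 were without overlap between groups. Leaving out DMSO replicate 1 moved the value of DNAJC10 to 0.18. With no filter on low values the adjusted p of DNAJC10 was 0.0639 (alternatives gave 0.00154 to 0.0639).

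The lectins and the SEL1L adaptor were among the largest rises of ERAD. OS9 (gene ID 10956, chromosome 12, 57693955 to 57721557), a lectin that delivers misfolded glycoproteins to the SEL1L complex, was at 148, 139 and 135 FPKM in DMSO and 252, 257 and 259 FPKM with cinobufagin, a 1.82-fold higher mean (log2 change 0.86, SE 0.04, limma adjusted p = 1.30e-08). ERLEC1, the related lectin, went from 37.9 ± 1.42 to 56.6 ± 1.35 FPKM (SD with n = 3 each; log2 change 0.57, SE 0.04, limma adjusted p = 4.98e-07). SEL1L (gene ID 6400, chromosome 14, 81471549 to 81533861), the adaptor that holds the ligase complex together, was at 27.6, 30.9 and 29.8 FPKM and then at 47.5, 44.5 and 49.7 FPKM (log2 change 0.66, SE 0.05, limma adjusted p = 8.14e-07). SYVN1, the ubiquitin ligase HRD1, was at 8.30 ± 0.599 and 12.03 ± 0.288 FPKM (log2 change 0.49, SE 0.06, limma adjusted p = 3.02e-05). It overlaps FAU on the same strand and MRPL49 on the other, so part of its reads is uncertain.

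The mannosidase-like EDEM genes, whose products trim sugars to mark glycoproteins for degradation, moved in opposite directions. EDEM3 was at 6.33, 7.08 and 6.76 FPKM in DMSO and 10.5, 10.4 and 10.8 FPKM with cinobufagin (log2 change 0.58, SE 0.06, limma adjusted p = 5.49e-06). EDEM2 went from 46.4 ± 2.27 to 62.4 ± 1.27 FPKM (log2 change 0.42, SE 0.05, limma adjusted p = 7.70e-06). EDEM1 fell instead, from 30.7, 31.8 and 32.2 FPKM to 25.3, 24.8 and 23.3 FPKM (log2 change -0.35, SE 0.05, limma adjusted p = 4.64e-05). None of the 3 genes had overlapping groups.

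Other ERAD genes act at the membrane and on its cytosolic side. VCP, the ATPase that pulls clients out of the membrane, went from 118 ± 0.238 to 152.5 ± 2.21 FPKM (SD with n = 3 each; log2 change 0.37, SE 0.04, limma adjusted p = 3.37e-06). NPLOC4, a VCP cofactor, went from 55.1 ± 1.86 to 71.97 ± 1.37 FPKM (log2 change 0.38, SE 0.04, limma adjusted p = 8.64e-06). UFD1, which forms 1 cofactor with NPLOC4, was at 20.7 ± 1.27 and 19.8 ± 1.21 FPKM, a difference that did not pass (95% interval of the log2 fold change -0.19 to 0.07, limma adjusted p = 0.409). SELENOS, a selenoprotein that recruits VCP to the membrane, rose by 0.46 on the log2 scale. HERPUD1, an ER membrane protein strongly induced in ER stress, was at 30.3, 29.9 and 30.8 FPKM in DMSO and 31.8, 31.2 and 32.3 FPKM with cinobufagin. Its groups did not overlap, yet the change was 1.05-fold and did not pass (log2 change 0.06, SE 0.04, limma adjusted p = 0.215).

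The derlins are channel proteins of ERAD. DERL1 rose by 0.19 (SE 0.05, limma adjusted p = 0.00524), which was 0.0527 with a trend on transcript length and GC content removed (alternatives gave 0.00316 to 0.0527). DERL2 was at 11.4 ± 0.167 and 12.9 ± 1.07 FPKM (SD with n = 3 each; log2 change 0.16, limma adjusted p = 0.0394), and 10 of 14 alternatives ended that call, with adjusted p from 0.0181 to 0.173 among them all, the highest without cinobufagin replicate 1, where the value was 0.10. In DERL3 the DMSO libraries were at 1.02, 1.56 and 1.48 FPKM and the cinobufagin libraries at 0.36, 0.83 and 0.08 FPKM (log2 change -0.75, SE 0.17, limma adjusted p = 0.00174). DERL3 passed the filter only through the DMSO libraries and so had to differ, and this p-value is not evidence of a fall. With no filter on low values its limma adjusted p was 0.0504. It also overlaps SMARCB1 on the opposite strand.

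Summed over genes, the groups contributed very different amounts. The 11 chaperone genes added up to 2177 ± 13.02 FPKM per library in DMSO and 2439 ± 48.7 with cinobufagin (SD, n = 3 each), 1.12 times as much. The 8 disulfide enzyme genes added up to 1624 ± 30.0 and 1583 ± 7.27 FPKM, and the libraries overlapped. The 15 ERAD genes went from 586 ± 7.42 to 819.5 ± 11.1 FPKM, 1.398 times as much, and without OS9 from 445 ± 1.79 to 563 ± 9.66 FPKM, 1.26 times. All 38 genes together took 0.810% to 0.838% of the summed FPKM of all genes in DMSO libraries and 0.901% to 0.934% in cinobufagin libraries. These sums follow the abundant genes: in DMSO, CALR at 922 ± 31.3 FPKM and P4HB at 892 ± 20.1 had overlapping libraries, and HSP90B1 came next at 531 ± 19.0.

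**Figure D3:**
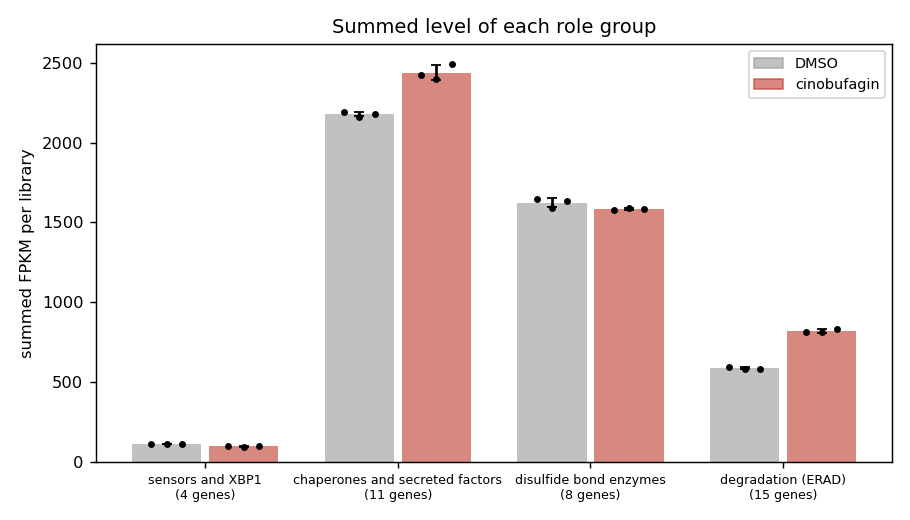
Summed FPKM per library (points) for each role group, with means (bars, from 0) and SD over 3 libraries (error bars), DMSO in grey and cinobufagin in red. The ERAD sum was 1.398 times and the chaperone sum 1.12 times the DMSO mean.

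The ratio of a gene to a related or partner gene in the same library was compared for 12 pairs. The difference between groups in the mean log2 ratio of FPKM + 1 was tested by an exact two-sided permutation test over libraries, which cannot go below 0.10 with 3 against 3. On that scale the groups did not overlap in 7 pairs, each with an exact permutation p = 0.10 (0.171 adjusted over the 12 pairs). P4HB was 2.82 to 2.88 times PDIA6 in DMSO and 4.58 to 4.88 times with cinobufagin. EDEM1 was 4.49 to 4.85 times EDEM3 in DMSO and 2.16 to 2.41 times with cinobufagin, the widest shift of the 12 (-0.94 on the log2 scale). It was 0.630 to 0.7195 times EDEM2 and then 0.365 to 0.409 times.

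The cofactor pair came apart as well, with UFD1 at 0.354 to 0.408 times NPLOC4 in DMSO and 0.255 to 0.288 times with cinobufagin. DNAJB9 rose against DNAJB11 by 0.59, and OS9 against ERLEC1 by 0.29 on the log2 scale. The fall of EDEM2 against EDEM3 was small (-0.16). On the FPKM + 1 scale, libraries of the groups overlapped for ERO1A over ERO1B (-0.03), DERL1 over DERL2 (0.03), SEL1L over SYVN1 (0.18), CANX over CALR (-0.09) and ERN1 over EIF2AK3 (0.08), with exact permutation p from 0.20 to 1.00. As plain FPKM ratios, which the added 1 compresses for low genes, 9 of the 12 pairs were without overlap. The further pairs were ERO1A over ERO1B (27.0 to 29.5 in DMSO, 23.6 to 24.9 with cinobufagin) and ERN1 over EIF2AK3 (0.0609 to 0.0654, then 0.0732 to 0.0803).

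**Figure D4:**
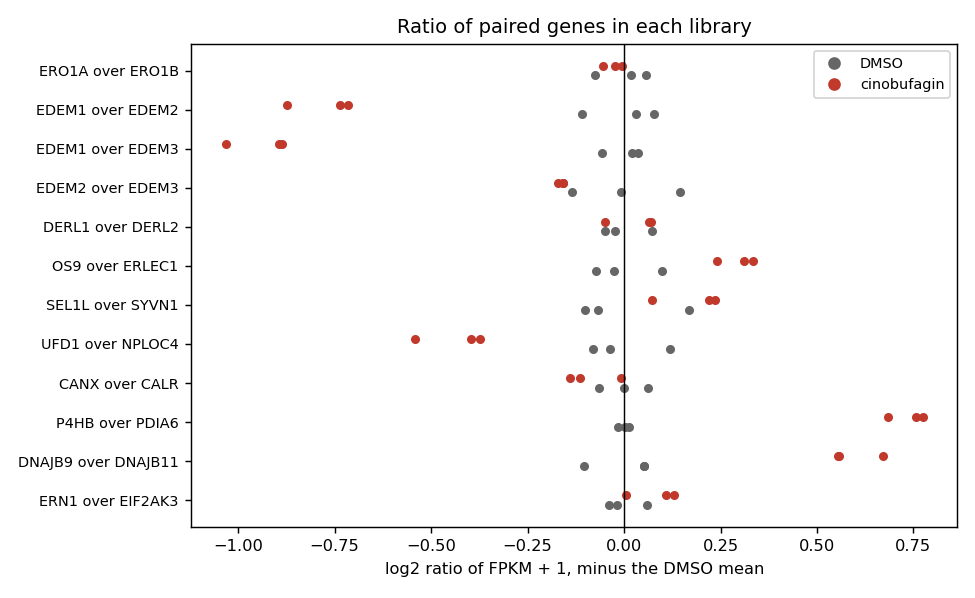
Log2 ratio of FPKM + 1 between paired genes in each library, minus the DMSO mean of that pair, DMSO in grey and cinobufagin in red. The shift is -0.94 for EDEM1 over EDEM3 and 0.74 for P4HB over PDIA6, while the groups overlap for SEL1L over SYVN1.

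Of the 11 genes with an exact ERSE or ERSE-II, 5 rose (HSPA5, HYOU1, ERO1B, CALR and CANX), 3 fell (XBP1, PDIA6 and HSP90B1) and 3 did not pass (HERPUD1, SDF2L1 and CRELD2), with a median log2 fold change of 0.06. These shares, 45.5% higher and 27.3% lower, were near those of all 9644 tested genes with a window, 39.7% and 27.8%. Of the 23 genes whose windows held neither, 20 rose and 3 fell, with a median of 0.36. VCP and DNAJC10, which hold TGACGTGG, are among these 23. The 4 genes without a window were PDIA3 and UFD1, which did not pass, DERL1, which rose, and DERL3, which fell. Outside the list, 33 genes held an element and 18 of them were tested, of which 5 rose and 6 fell, and 7 missed the threshold (median 0.03). Over all tested genes with a window the median was 0.07. No test was made between genes with and without an element.

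The promoters of a pair that rose, HSPA5 and HYOU1, and of a pair that fell, PDIA6 and XBP1, are shown in full. HSPA5, PDIA6 and XBP1 each hold an ERSE, and HYOU1 holds ERSE-II matches. Each printed stretch is the 250 bases before the start used for the window, 5′ to 3′ on the gene's strand (minus for all 4), with ERSE, ERSE-II and TGACGTGG matches in capitals.
HSPA5 (chr9:125241344-125241593): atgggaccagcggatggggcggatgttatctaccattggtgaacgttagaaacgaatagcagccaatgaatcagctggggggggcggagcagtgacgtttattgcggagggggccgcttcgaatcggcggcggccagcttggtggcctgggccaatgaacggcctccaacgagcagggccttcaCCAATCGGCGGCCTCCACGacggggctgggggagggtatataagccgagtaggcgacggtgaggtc
HYOU1 (chr11:119057206-119057455): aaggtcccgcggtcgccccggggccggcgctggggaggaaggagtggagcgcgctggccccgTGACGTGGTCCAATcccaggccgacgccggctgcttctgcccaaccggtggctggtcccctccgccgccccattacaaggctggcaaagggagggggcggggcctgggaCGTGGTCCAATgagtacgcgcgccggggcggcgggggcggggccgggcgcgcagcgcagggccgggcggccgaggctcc
PDIA6 (chr2:10812786-10813035): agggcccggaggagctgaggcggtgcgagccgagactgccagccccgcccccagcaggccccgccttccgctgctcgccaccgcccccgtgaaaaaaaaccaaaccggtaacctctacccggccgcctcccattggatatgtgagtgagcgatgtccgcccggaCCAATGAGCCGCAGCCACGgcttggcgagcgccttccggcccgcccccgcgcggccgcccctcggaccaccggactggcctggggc
XBP1 (chr22:28800570-28800819): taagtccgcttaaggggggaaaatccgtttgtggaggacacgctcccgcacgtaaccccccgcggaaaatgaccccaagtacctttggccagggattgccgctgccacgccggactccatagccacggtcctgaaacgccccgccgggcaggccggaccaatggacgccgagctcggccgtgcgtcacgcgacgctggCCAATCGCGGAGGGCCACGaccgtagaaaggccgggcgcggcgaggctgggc

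**Figure D5:**
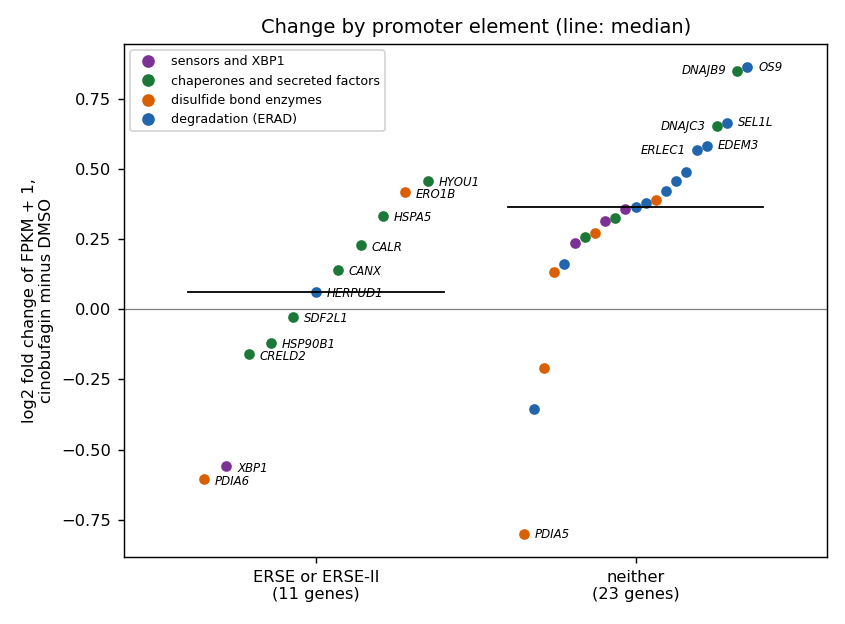
Log2 fold change of FPKM + 1 (cinobufagin minus DMSO) of the 34 genes with a promoter window, split by whether it holds an exact ERSE or ERSE-II, coloured by role, with group medians as lines (0.06 and 0.36). PDIA6 and XBP1 are the lowest of the 11 genes with an element, and PDIA5 is the lowest without.

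Other genes of the pathway were taken from lists by function, drawn up with earlier results of these data known. Among 13 further regulators of the unfolded protein response, 9 rose and 3 fell, and 1 missed the threshold (median 0.20 on the log2 scale). These shares were 69.2% higher and 23.1% lower, against 39.2% and 28.4% of all genes tested. MBTPS1, the protease that makes the first cut in ATF6, went from 52.8 ± 0.243 to 85.3 ± 2.74 FPKM (SD with n = 3 each; log2 change 0.68, SE 0.04, limma adjusted p = 5.08e-08). CREB3, an ER membrane transcription factor cut by the same proteases, rose by 0.67 and WFS1, a negative regulator of ATF6, by 0.56 on the log2 scale. CREB3L1, a relative of CREB3, fell, from 12.8 ± 0.730 to 5.58 ± 0.327 FPKM (log2 change -1.07, SE 0.07, limma adjusted p = 7.02e-08).

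The PERK gene and the genes listed as outputs of its arm differed in direction. Of 10 such output genes, 0 rose and 9 fell, and 1 missed the threshold (median -0.87 on the log2 scale). That is 90% lower, against 28.4% of all genes tested. PERK activity was not measured, and whether PERK or another input set these levels was not tested. The largest falls were those of CHAC1 (-2.40), TRIB3 (-2.23), ASNS (-2.02) and DDIT3 (-1.35) on the log2 scale. ATF4, named here as the transcription factor of the arm and not by the size of its change, was at 320 ± 1.81 and 165.5 ± 4.36 FPKM and DDIT3, which encodes CHOP, at 94.9 ± 6.19 and 36.7 ± 1.26 FPKM (SD, n = 3 each), beside 18.3 ± 1.51 and 21.7 ± 0.950 FPKM for EIF2AK3.

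Among further ERAD genes, 14 of 24 rose, with 3 that fell and 7 that did not pass (median 0.17 on the log2 scale). That is 58.3% higher and 12.5% lower, against 39.2% and 28.4% of all genes tested. FAM8A1, a cofactor of HRD1, went from 13.6 ± 1.16 to 26.7 ± 0.334 FPKM (SD with n = 3 each; log2 change 0.92, SE 0.06, limma adjusted p = 1.12e-07). AUP1, which brings a ubiquitin-conjugating enzyme to the ligase complex, rose by 0.56, DNAJB14, a membrane J protein, by 0.36, and the deubiquitinase YOD1 fell by 0.47 on the log2 scale. Further folding genes had shares near the 39.2% higher and 28.4% lower of all genes. Of 36 tested of 37 listed, 16 rose and 9 fell, and 11 missed the threshold (median 0.07), that is, 44.4% higher and 25% lower. CDNF reached the filter in cinobufagin libraries alone and so had to differ, and 15 of 35 rose without it. The prolyl isomerase FKBP11 fell by 1.14 and CNPY3, a co-chaperone of HSP90B1, fell by 0.97 on the log2 scale. CNPY4 rose by 0.83 and the membrane thioredoxin TMX4 by 0.78.

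Libraries were even in summed FPKM (534694 to 560721) and in genes above 0 FPKM (14701 to 14896), and read totals are unknown. Of 12 markers of retinal pigment epithelium, OTX2 (48.5 ± 0.322 FPKM in DMSO), MITF (45.1 ± 2.22), KRT8 and KRT18 were well expressed, while RPE65, RLBP1, TTR and TYR did not reach the filter, with RPE65 at 0.0100 FPKM and TTR listed at 0. BEST1, LRAT, PMEL and SERPINF1 were low, at 1.21, 1.02, 2.04 and 5.15 FPKM in DMSO. The marker sum was 857 to 926 FPKM in DMSO libraries and 684 to 689 FPKM with cinobufagin, and KRT8 and KRT18 made up most of it. KRT8 (mean 454, then 316 FPKM) and KRT18 (324, then 232 FPKM) fell, while OTX2 (48.5, then 74.5 FPKM) and MITF (45.1, then 56.3 FPKM) rose. Of the 8 markers tested 2 rose and 4 fell (25% and 50%, against 39.2% and 28.4% of all genes tested), and their part in the results was not tested. Of 10 markers of blood, vessel, glial and neuronal cells, 8 were in the table and their sum was under 1 FPKM in every library, with PTPRC at 0. Overlap with another listed gene touched 14 of the 38 genes. Besides DNAJB9, PDIA5, SYVN1 and DERL3, these were DNAJB11, CANX, CRELD2, PDIA3, PDIA6, ERO1B, ERLEC1, DERL1, DERL2 and NPLOC4, on the opposite strand. Of the other 24 genes, 17 rose, 4 fell and 3 did not pass.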

How the data were processed

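RNA sequencing of 6 libraries was analysed from the deposited table of FPKM per gene, given to 2 decimals, per the file headers. Per the submitters' processing notes, Bowtie2, RSEM 1.3.1, DESeq2 1.4.5 and the build GRCh38.p13 were used, without a role for each, and the strand setting is not stated in the labels. FPKM carry no read totals, so no counting intervals are given. Control columns are named mock in the table and were taken as the DMSO libraries of the same number. Entries without a gene ID (19) were left out. Entrez IDs were matched to symbols with RefSeq GRCh38.p14, and positions and overlaps come from GENCODE 29 on GRCh38. A gene was tested when 3 or more libraries reached 1 FPKM (11599 genes). The log2 of FPKM + 1 was fitted with limma 3.58.1 (mean-variance trend, R 4.3.3) over all of them without a replicate block, and p-values were adjusted by Benjamini-Hochberg, threshold 0.05. The pipeline was tested on simulated data. Values of every library are given for the sensors, HSPA5 and the 3 largest rises and falls past the threshold in each other role group, and up to 4 genes of each further list are named by the size of their change. HERPUD1, which did not pass, is also given by library, outside this rule. Protein sequences were not analysed here. Members and lists were chosen with earlier results of these data known. No libraries held identical values (0 pairs).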

Additional observations from a re-analysis of the deposited data

How the results depend on the processing

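Of 33 calls among the 38 genes, 26 kept their direction and their side of the threshold under every alternative in which the gene was tested (21 higher, 5 lower). ERN1 and ERO1B are among these, but they lie below the alternative filter of 5 FPKM and were not tested there. The other 7 were CANX, DERL1, DERL2, DERL3, DNAJC10, HSP90B1 and P4HB. The number that rose was 26, against 23 under median centring and 24 to 25 leaving out each library, and the number that fell was 7, against 6 to 8. With the replicate block 25 rose and 7 fell. Deviations of same-numbered libraries from their group means had r = -0.049, -0.105 and -0.009. Those of other library pairs across the groups ran from -0.112 to 0.162. With 3 libraries per group, these values cannot exclude a pairing by number. The value of SDF2L1, which did not pass, changed sign to 0.136 with the length and GC trend removed, an alternative added after seeing the data (limma adjusted p = 0.0499), and ran from -0.084 to 0.039 leaving out each library. CRELD2, which did not pass, was called lower after quantile normalization, under median centring and without DMSO replicate 2 or cinobufagin replicate 2. The ratio of ERO1A to ERO1B ran from -0.065 to 0.001 on the log2 scale leaving out each library. In the oligosaccharyltransferase list the count that rose was 3 to 6 leaving out each library, and the count that fell was 1 after quantile normalization. The cause of these changes was not tested. Median centring moved the median of all genes from 0.06 to 0.02. FPKM + 1 compresses the changes of genes near 1 FPKM, such as ERN1, ERO1B and DERL3.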

Other observations

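Genes whose products carry pieces of the ER to the lysosome (ER-phagy) had a higher median change than the 38 folding and degradation genes (0.26). Among 8 genes there were 5 that rose and 1 that fell (median 0.55 on the log2 scale). That is 62.5% higher and 12.5% lower, against 39.2% and 28.4% of all genes tested. CCPG1, an ER-phagy receptor, went from 22.1 ± 2.08 FPKM in DMSO to 46.4 ± 1.19 with cinobufagin (SD with n = 3 each; log2 change 1.04, SE 0.06, limma adjusted p = 5.95e-08). RETREG2 rose by 0.97, CALCOCO1 by 0.94 and RETREG3 by 0.87 on the log2 scale. The gene that fell was RETREG1 (-0.19), named after its value was seen.

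Lists for entry into the ER and for glycosylation had lower medians. Of 24 translocation and signal peptide genes, there were 12 that rose and 2 that fell (median 0.13 on the log2 scale). In shares, 50% were higher and 8.33% lower, against 39.2% and 28.4% of all genes tested. SEC11A, a signal peptidase subunit, fell by 0.47, and SEC61A1, the channel, rose by 0.41 on the log2 scale. SRPRB, a receptor subunit for the signal recognition particle, rose by 0.41 and SRP14 by 0.39. Of 11 oligosaccharyltransferase genes, 6 rose and 2 fell (54.5% and 18.2%), and 3 missed the threshold (median 0.15). Leaving out cinobufagin replicate 3 left 3 that rose. MAGT1 rose by 0.69, OST4 by 0.48 and TUSC3 by 0.32, and the catalytic subunit STT3A fell by 0.29 on the log2 scale.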
